A study of Rattus norvegicus with 20 samples.

Results

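The 10 genes described here encode the peptides that nociceptors make without injury and the proteins that pack and cut them. They were chosen by symbol from the 39747 genes in the deposited table, and all 10 were found: Calca, Calcb, Tac1, Sst, Nppb, Scg2, Chga, Chgb, Pcsk1, and Pcsk2. Nociceptors are the sensory neurons of the dorsal root ganglion (DRG) that respond to damaging heat, pressure, or chemicals. Their peptides are made as longer precursors, sorted into dense-core vesicles with the help of granins, cut by prohormone convertases inside those vesicles, and released both in the dorsal horn of the spinal cord and in the skin. The same granins and convertases, and some of the same peptides, are also made by neurons of the spinal cord.

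RNA was sequenced from 20 DRG of 14 female Sprague-Dawley rats labelled wild type. For 4 weeks before surgery the fat of the diet was either soy oil (SOD, the control) or fish oil rich in omega-3 fatty acids (FOD). In chronic constriction injury (CCI), the left sciatic nerve was ringed with loose ligatures, and in sham controls (CT) the nerve was exposed and left untied. There were 14 left DRG, with 4 rats in SOD-CT, 3 in SOD-CCI, 3 in FOD-CT, and 4 in FOD-CCI. The right (contralateral) DRG was also sequenced in 6 of the CCI rats, 3 on each diet. Every CCI rat therefore carried a ligature on the left only, and contralateral DRG share the animal and the diet with the injured side. The rats were young adults by the study's methods. Collection is placed 1 week after surgery there, while the diets are described as going on for 4 further weeks, and the spinal level of the DRG is not given in the sources used here.

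Library totals ran from 22547190 to 54437581 counts, with a median of 29051399. The lowest count of any of the genes other than Nppb in any library was 47, so that spread between rats, and not counting error, limited most values. The neuron markers (10 of 10 genes found) were present in all libraries, with summed levels from 2606 to 10895 CPM (a gene's share of the library's counts, on the usual per-10⁶ scale, after edgeR's TMM factors). In 3 libraries, replicate 1 of each fish oil group, spinal cord markers (9 genes of astrocytes, oligodendrocytes, and inhibitory neurons) summed to 3364 CPM (FOD-CT 1), 1998 CPM (FOD-CCI 1), and 3794 CPM (FOD-CCI contralateral 1). The other 17 libraries held 13.05 to 113 CPM of these markers. The library labelled FOD-CCI contralateral 1 held 109 CPM of 10 nociceptor genes in all, against 2116 to 5711 CPM in the 17 libraries, with Scn10a, Trpv1, and Mrgprd at 0. The library labelled FOD-CCI 1 held 92.3 CPM of 7 injury-induced neuropeptides, against 490 to 1569 CPM in the other 6 injured DRG and 43.6 to 195 CPM in sham DRG. Skeletal muscle markers (8 genes) reached 143359 CPM in SOD-CT 1 and 21789 CPM in FOD-CT 2, and were 7362 CPM or less elsewhere. These libraries are named beside many of the results they touch, but not beside all. Values listed one by one for a group are in order of replicate. SOD-CT 1 therefore comes first in SOD-CT and FOD-CT 2 second in FOD-CT. Results are given with all libraries, and many of them also without the 3 libraries that hold spinal cord transcripts. The part of these transcripts in the results was otherwise not tested.

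Promoter sequence was available for 7 of the 10 genes (RefSeq, build GRCr8, 250 bases before to 50 bases after the annotated start), and not for Calcb, Chga, or Pcsk1. The promoters of Calca and Tac1 are shown because their levels varied together across libraries, and those of Sst and Scg2 because both hold the complete cAMP response element, TGACGTCA, the sequence through which cAMP signals reach the somatostatin gene. Capitals mark TGACG, the first letters of that element, and its complement CGTCA on the other strand, each run reading 5′ to 3′ on the gene's own strand.
Calca, chr1:178317480-178317779, minus strand: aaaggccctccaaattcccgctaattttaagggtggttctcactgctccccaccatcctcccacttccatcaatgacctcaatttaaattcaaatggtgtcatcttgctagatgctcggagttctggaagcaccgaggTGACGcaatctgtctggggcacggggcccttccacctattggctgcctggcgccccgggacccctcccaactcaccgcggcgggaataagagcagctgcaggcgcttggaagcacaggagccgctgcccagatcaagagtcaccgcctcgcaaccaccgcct
Tac1, chr4:36645333-36645632, plus strand: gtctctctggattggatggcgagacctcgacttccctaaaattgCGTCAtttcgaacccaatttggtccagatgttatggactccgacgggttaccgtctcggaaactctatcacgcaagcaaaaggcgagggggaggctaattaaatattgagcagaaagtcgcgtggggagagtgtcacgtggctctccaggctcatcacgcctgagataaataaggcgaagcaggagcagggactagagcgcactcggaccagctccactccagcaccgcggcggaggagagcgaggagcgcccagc
Scg2, chr9:88256817-88257116, minus strand: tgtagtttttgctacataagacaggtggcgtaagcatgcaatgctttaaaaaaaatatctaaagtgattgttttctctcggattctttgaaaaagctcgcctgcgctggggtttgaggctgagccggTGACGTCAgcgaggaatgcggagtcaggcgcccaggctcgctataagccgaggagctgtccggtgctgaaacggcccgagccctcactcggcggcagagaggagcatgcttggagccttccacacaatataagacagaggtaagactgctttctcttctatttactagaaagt
Sst, chr11:90461296-90461595, plus strand: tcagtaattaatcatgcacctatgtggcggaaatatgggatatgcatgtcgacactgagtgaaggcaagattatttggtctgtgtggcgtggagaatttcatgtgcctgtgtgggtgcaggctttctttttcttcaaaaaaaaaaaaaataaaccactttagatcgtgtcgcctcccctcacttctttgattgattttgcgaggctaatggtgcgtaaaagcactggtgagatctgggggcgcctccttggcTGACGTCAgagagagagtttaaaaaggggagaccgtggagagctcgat
The complete element lay 123 bases before the annotated start of Scg2 and began at base 3 after the annotated start of Sst. It was in 1.83% of 33469 promoters of the same length, and in 2 of the 7 shown or searched here. The shorter TGACG, on either strand, was in 21.2% of all promoters and in 5 of the 7, namely Calca, Tac1, Sst, Scg2, and Pcsk2, where it overlaps the complete element in Sst and Scg2. TGANTCA, the AP-1 element, was in 7.33% of promoters and in 0 of the 7. TATAAA, on either strand, was in 14.2% and in 1 of the 7 (Nppb). In Nppb it lay on the opposite strand, as TTTATA 208 bases before the annotated start. These are matches of letters and no record of binding.

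On the per-length scale (median FPKM over the 20 libraries), which allows genes to be compared, Calca, the gene for calcitonin and for the vasodilator peptide α-CGRP, was the highest at 658. Tac1, the precursor of substance P and neurokinin A, followed at 284, and Calcb, the gene for β-CGRP, at 227. Scg2 (secretogranin II) stood at 122, Sst, the precursor of the inhibitory peptide somatostatin, at 90.4, Chga (chromogranin A) at 67.5, and Chgb (chromogranin B) at 54.2. The convertases were lower, with Pcsk2 at 25.5 and Pcsk1 at 16.7. Nppb, the precursor of the natriuretic peptide through which a class of itch neurons signals, was the lowest at 2.54. The order of the sensory peptides was thus CGRP and tachykinin first, and every peptide gene but Nppb lay above both convertases. Gene-level counts do not separate the calcitonin and CGRP messages of Calca, and reads shared by Calca and Calcb, which are close in sequence, may be split between them, since the handling of such reads is not given in the sources used here.

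**Figure D1:**
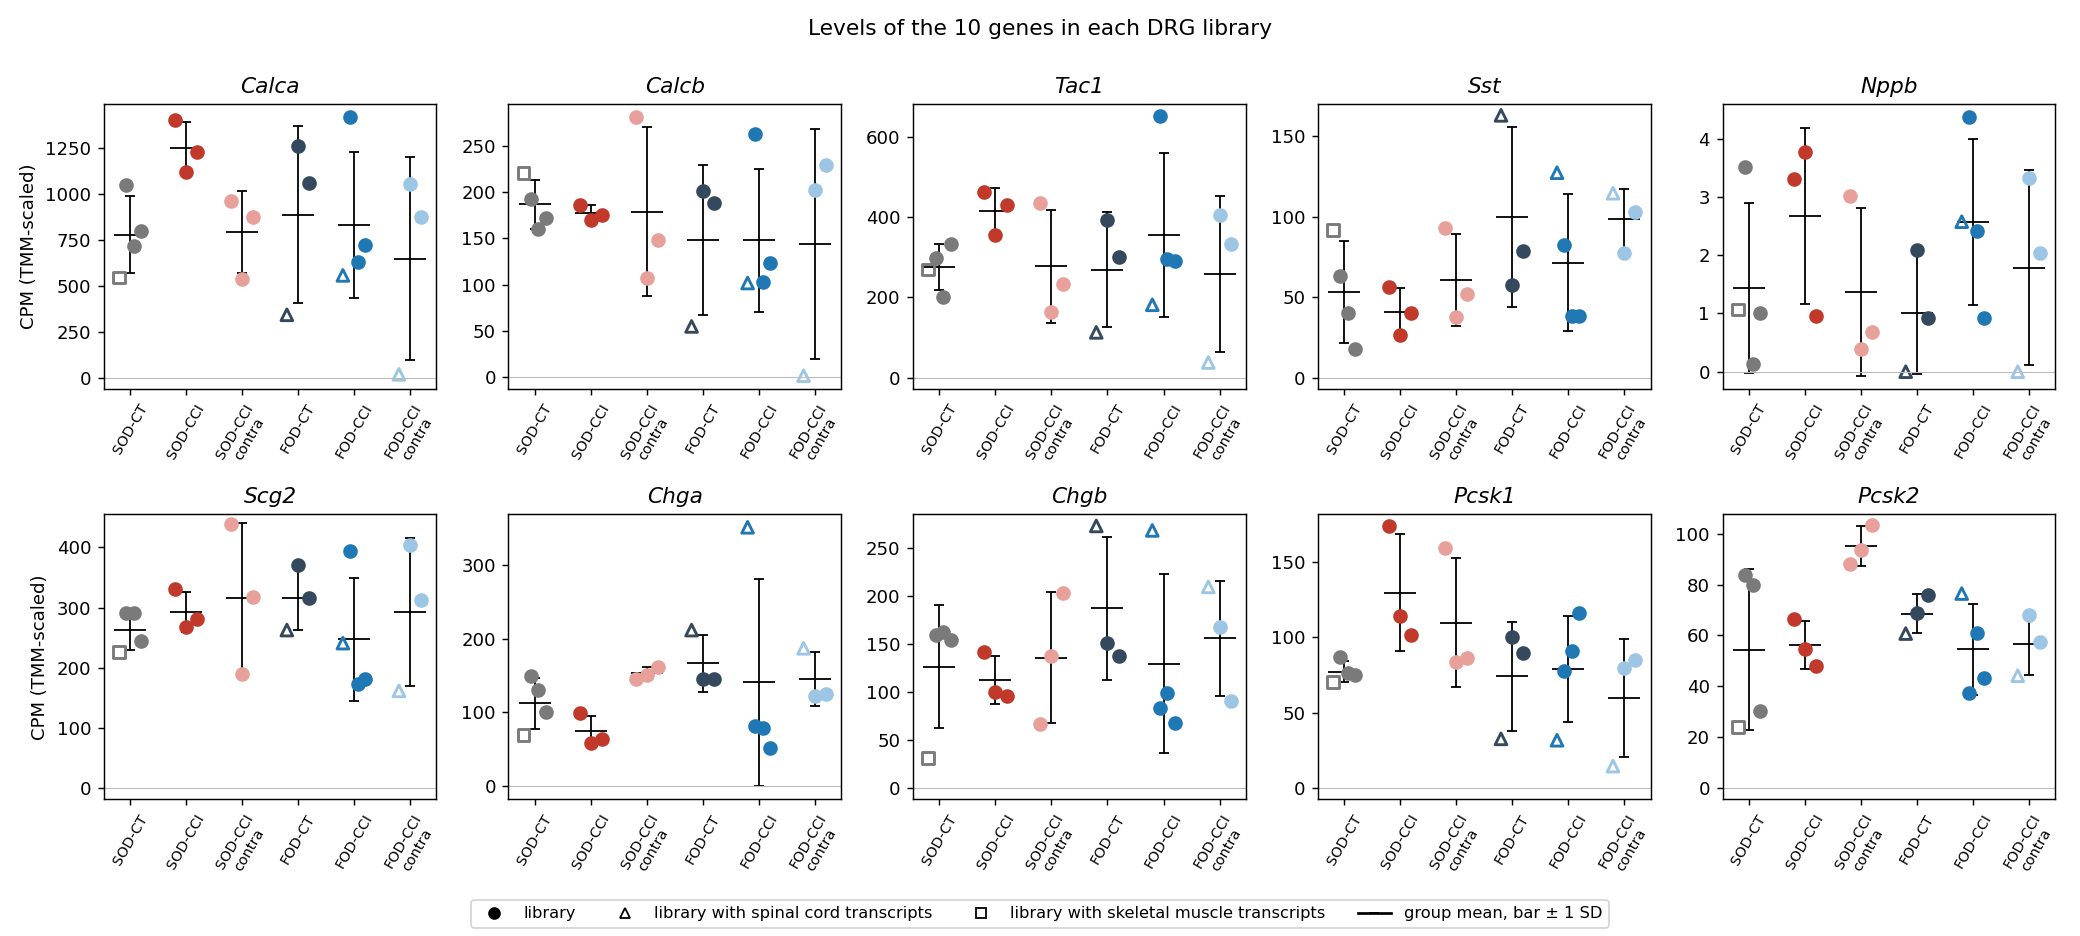
TMM-scaled CPM of each gene in each of the 20 libraries, by group, with the group mean and 1 SD. Open triangles are the 3 libraries with spinal cord transcripts and the open square is the SOD-CT library with 143359 CPM of skeletal muscle markers. The triangles are low for Calca, Calcb, Tac1, and Pcsk1 and high for Sst, Chga, and Chgb.

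The 3 libraries with spinal cord transcripts split the genes into distinct classes. In FOD-CCI contralateral 1, Calca was at 18.2 CPM, Calcb at 1.93 CPM, and Tac1 at 37.8 CPM, against lowest values of 538, 103, and 163 CPM in the 17 other libraries. Pcsk1, which cuts precursors early in the secretory pathway, was at 32.8, 31.9, and 14.7 CPM in FOD-CT 1, FOD-CCI 1, and FOD-CCI contralateral 1, below all 17 others, and Calcb was also below all 17 others in the 3 libraries. Sst, Chga, and Chgb went the other way and were above all 17 others in each of the 3. Chga was at 212, 352, and 187 CPM there, against at most 162 CPM elsewhere. Chgb was at 272, 268, and 209 CPM, against at most 203 CPM. Pcsk2 stayed within the range of the other libraries, and Scg2 did except in FOD-CCI contralateral 1, where it was below it, with Scg2 at 0.902, 0.828, and 0.556 of their median and Pcsk2 at 0.916, 1.15, and 0.667 of it. Nppb had 0 counts in FOD-CT 1 and in FOD-CCI contralateral 1, where 0 counts allow a level of up to 0.0859 CPM and 0.123 CPM (3 counts per library, counting error only). Each fold that involves the FOD-CT, FOD-CCI, or FOD-CCI contralateral group therefore contains a library of this kind.

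**Figure D2:**
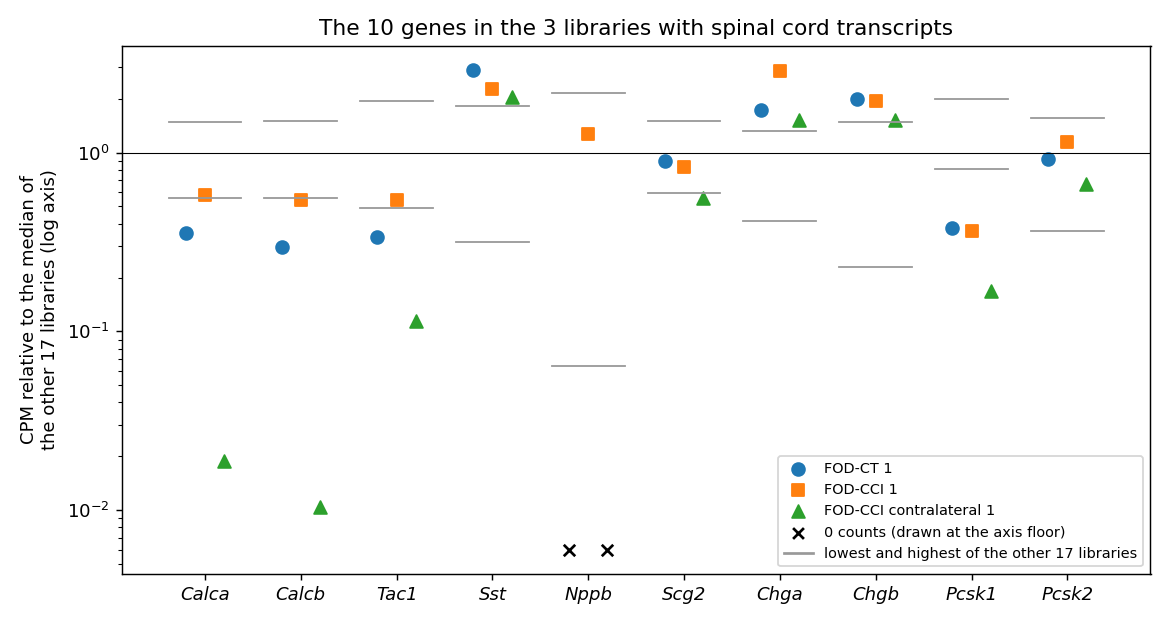
CPM of each gene in the 3 libraries with spinal cord transcripts, divided by the median of the 17 other libraries, on a log axis; grey lines give the lowest and highest of the 17. Calca in FOD-CCI contralateral 1 is at 0.0189 of that median and Chga in FOD-CCI 1 at 2.87 times it, and Nppb with 0 counts is drawn as a cross.

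Calca and Tac1 were higher in injured than in sham DRG on the soy oil diet without overlap, but neither passed the test. In SOD-CT, Calca was at 546, 1049, 716, and 799 CPM, and in SOD-CCI at 1402, 1119.7, and 1226 CPM. The lowest injured library lay above the highest sham library, and the log2 fold change was 0.69 (SE 0.41, adjusted p = 0.459, edgeR quasi-likelihood test with Benjamini-Hochberg adjustment over all genes tested). Tac1 was at 269, 299, 200.4, and 333 CPM in SOD-CT and at 463, 354, and 429 CPM in SOD-CCI (log2 fold change 0.60, SE 0.42, edgeR adjusted p = 0.530). Calca, Tac1, and Pcsk1 were the 3 of 9 tested genes whose SOD-CCI and SOD-CT libraries did not overlap, and 17.6% of 14435 genes had groups that did not. Calcb did not share this pattern, with a mean of 186 ± 26.2 CPM (SD, n = 4) in SOD-CT and 177 ± 8.33 CPM (SD, n = 3) in SOD-CCI (log2 fold change -0.07, SE 0.41, edgeR adjusted p = 0.950).

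The ratio of Calca to Calcb counts within a library, which no scaling can move, was 6.60 to 7.53 in SOD-CCI, 2.48 to 5.45 in SOD-CT, and 3.42 to 5.90 in the contralateral DRG of SOD-CCI rats. The soy oil injured libraries thus lay above both control groups. The lowest SOD-CT value, 2.48, belongs to SOD-CT 1, the library with 143359 CPM of skeletal muscle markers. On the fish oil diet it was 5.61 to 6.28 in FOD-CT and 5.40 to 6.10 in FOD-CCI, which overlap, and 9.38, 5.20, and 3.81 in FOD-CCI contralateral 1, 2, and 3, the first with spinal cord transcripts. This ratio was picked after the values were seen and was not tested.

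On the fish oil diet, injured and sham levels of the sensory peptides overlapped widely. Calca was at 342, 1259, and 1057 CPM in FOD-CT and at 557, 1420.4, 630, and 721 CPM in FOD-CCI (log2 fold change -0.09, SE 0.42, edgeR adjusted p = 1.00). The lowest value of each group was the library with spinal cord transcripts, and without these libraries the change was -0.32 (SE 0.36). Tac1 was at 113, 392.3, and 302 CPM in FOD-CT and at 181, 651, 296, and 289 CPM in FOD-CCI (log2 fold change 0.40, SE 0.43, edgeR adjusted p = 1.00; 0.25, SE 0.36, without the libraries with spinal cord transcripts). FOD-CCI 2 was the highest library of the series for Tac1, and without it the fold change turned to -0.08. Calcb had a log2 fold change of 0.00 (SE 0.40, edgeR adjusted p = 1.00), and its highest FOD-CCI library was also replicate 2, at 263 CPM against 102 to 124 CPM in the other 3.

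Between the sides of the same rat, Calca and Tac1 were higher in the injured DRG in 5 of 6 rats each, and Calcb in 4 of 6. The contralateral values of Calca were 961, 538, and 872 CPM in SOD-CCI rats and 18.2, 1052, and 871 CPM in FOD-CCI rats. Fitted with the rat as a block, the log2 fold change of Calca was 0.72 (SE 0.77, edgeR adjusted p = 0.874) in SOD-CCI rats and 1.27 (SE 0.94, edgeR adjusted p = 0.808) in FOD-CCI rats. The fish oil value rests on rat 1, whose libraries both hold spinal cord transcripts and differ by 4.94 on the log2 scale, and without that rat it was -0.07 (SE 0.27). The SOD-CCI value without that rat was 0.72 with an SE of 0.22 (edgeR adjusted p = 0.158). Over both diets Calca stood at 1.00 (SE 0.61, edgeR adjusted p = 0.577), or 0.33 (SE 0.17) without rat 1.

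Tac1 was at 434, 163, and 233 CPM in the contralateral DRG of SOD-CCI rats and at 37.8, 404, and 333 CPM in those of FOD-CCI rats. The injured side was higher by 0.73 (SE 0.41, edgeR adjusted p = 0.7098) in SOD-CCI rats, by 0.87 (SE 0.43, edgeR adjusted p = 0.740) in FOD-CCI rats, and by 0.80 (SE 0.30, edgeR adjusted p = 0.349) over both diets, all on the log2 scale. DESeq2's Wald test called Tac1 over both diets (0.79, adjusted p = 0.0471), together with 5.43% of all genes tested. Without FOD-CCI rat 1 the edgeR value over both diets was 0.47 (SE 0.20, adjusted p = 0.232). Calcb did not pass in any of these fits, with 0.13 (SE 0.91, edgeR adjusted p = 0.982) in SOD-CCI rats, 1.07 (SE 1.17, edgeR adjusted p = 0.876) in FOD-CCI rats, and 0.60 (SE 0.75, edgeR adjusted p = 0.797) over both diets, and the last turned to -0.15 without rat 1.

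**Figure D3:**
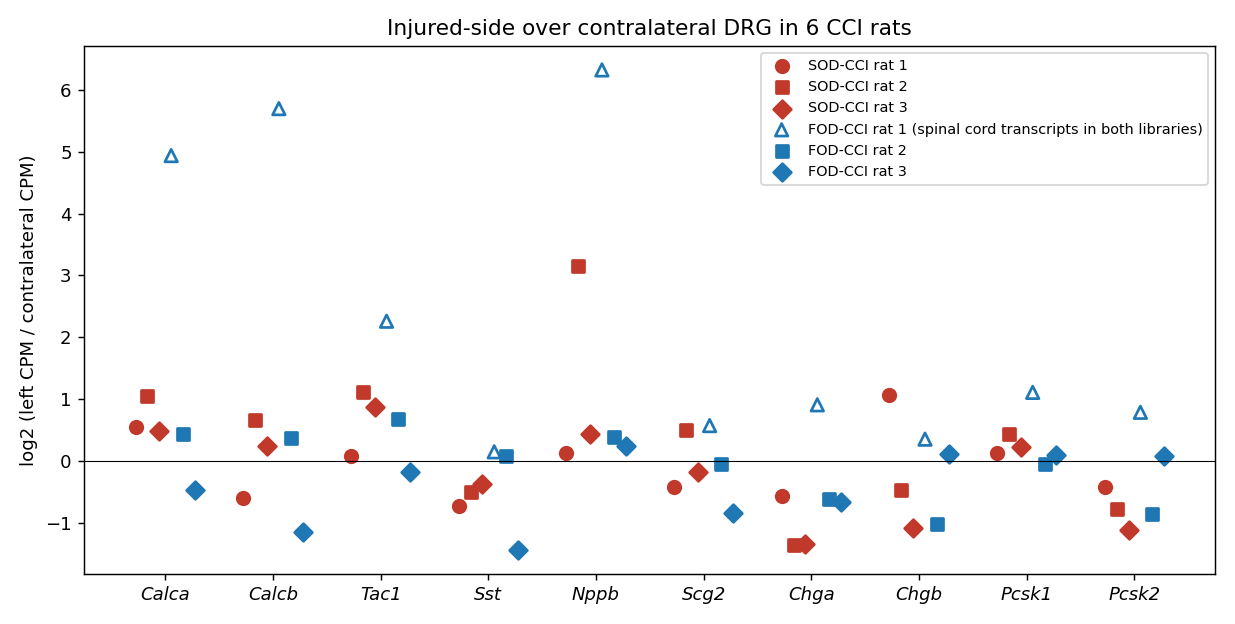
Log2 ratio of left (injured) to contralateral CPM for each gene in each of the 6 CCI rats with both DRG sequenced. Chga lies below 0 in every rat but FOD-CCI 1 (open triangle), and that rat carries the highest ratio of Nppb (6.32, set by the prior count because the right library has 0 counts), Calca (4.94), Calcb (5.69), Tac1 (2.26), and Pcsk1 (1.11).

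Sst was lower on the injured side in 4 of 6 rats and did not pass in any comparison. It was at 91.8, 62.95, 40.1, and 17.7 CPM in SOD-CT, a wide spread for a group of sham rats, and at 56.1, 26.6, and 39.97 CPM in SOD-CCI. The fish oil groups held 163, 57.7, and 78.9 CPM in FOD-CT and 127, 82.3, 38.3, and 38.4 CPM in FOD-CCI, the first of each being a library with spinal cord transcripts. Injury changed Sst by -0.38 (SE 0.56, edgeR adjusted p = 0.788) on the soy oil diet and by -0.48 (SE 0.55, edgeR adjusted p = 1.00) on the fish oil diet, on the log2 scale. Within rats it was lower on the left by -0.51 (SE 0.31, edgeR adjusted p = 0.738) in SOD-CCI rats, -0.43 (SE 0.31, edgeR adjusted p = 0.806) in FOD-CCI rats, and -0.47 (SE 0.22, edgeR adjusted p = 0.450) over both diets. Without FOD-CCI rat 1 the last value was -0.61 (SE 0.22, adjusted p = 0.157). Sst and Nppb mark a small class of itch-signalling neurons in mouse DRG, and in bulk RNA fewer cells of a type and less RNA per cell cannot be told apart.

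Nppb had at least 10 counts in 17 of 20 libraries and passed the filter on low counts, with all libraries, in the comparison of sides alone. Its group means ran from 1.00 ± 1.05 CPM (SD, n = 3) in FOD-CT to 2.67 ± 1.51 CPM (SD, n = 3) in SOD-CCI, so that the SD was near the mean. The left DRG was higher in 6 of 6 rats, with edgeR log2 fold changes of 1.22 (SE 1.24, adjusted p = 0.865) in SOD-CCI rats, 1.54 (SE 1.34, adjusted p = 0.850) in FOD-CCI rats, and 1.38 (SE 0.92, adjusted p = 0.614) over both diets. Some of these differences were small for so few counts. Left and right had 92 and 80 counts in SOD-CCI rat 1, and 29 and 30 in rat 3, where the right library was deeper. The share of all genes higher in 6 of 6 rats was not taken. In FOD-CCI rat 1 the contralateral library had 0 counts, which makes its left level of 2.57 CPM at least 20.8-fold higher than the level 3 counts would give, and the fitted fish oil value depends on how that 0 is treated. Without that rat the values over both diets were 0.74 (SE 0.60, adjusted p = 0.543).

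Chga was lower in injured than in contralateral DRG in 5 of 6 rats, but it passed the test only under alternative settings. Chromogranin A is a core protein of dense-core vesicles and the precursor of several regulatory peptides. In SOD-CCI it was at 98.6, 58.8, and 64.05 CPM on the injured side, and at 146, 151, and 162 CPM on the uninjured side of these 3 rats. The groups did not overlap, as was the case for Calca, Chga, and Pcsk2 among the 9 genes tested and for 20.6% of 14435 genes. The log2 fold change was -1.06 (SE 0.33), a level of 0.479 of the contralateral side, and its adjusted p of 0.371 (edgeR) missed the threshold of 0.1. DESeq2 called it (-1.08, adjusted p = 0.0305) among 3.24% of all genes. Without FOD-CCI rat 1 in the fit edgeR called it as well (-1.06, SE 0.20, adjusted p = 0.0317) among 3.14% of all genes.

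In FOD-CCI rats Chga was at 352, 80.7, and 79.1 CPM on the left and at 187, 123, and 125 CPM on the right. Rat 1, with spinal cord transcripts on both sides, was the single exception to a lower injured side, by 0.91 on the log2 scale. With it the log2 fold change in FOD-CCI rats was -0.17 (SE 0.33, edgeR adjusted p = 0.934), and without it -0.68 (SE 0.24, adjusted p = 0.301), where 0.914% of all genes were called. Over both diets Chga had a log2 fold change of -0.62 (SE 0.23, edgeR adjusted p = 0.349), and DESeq2 called it (-0.63, adjusted p = 0.0875). Without rat 1 it was called by edgeR at -0.87 (SE 0.16, adjusted p = 0.0160) among 7.64% of all genes, and it was lower on the left in 5 of 5 rats, by -0.56 to -1.36. It was the only gene of the 9 tested to be lower on the left in all 5, as were 9.85% of all genes. The difference between diets in this side ratio was 0.89 with all rats (SE 0.46, edgeR adjusted p = 0.997) and 0.38 without rat 1 (SE 0.31, adjusted p = 0.999).

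The summed neuron markers differed between the sides of the 3 SOD-CCI rats by -0.05 to 0.07 on the log2 scale. In FOD-CCI rats they differed by 1.499 in rat 1, -0.32 in rat 2, and 0.49 in rat 3, so that they were not level on the fish oil diet. The mean log2 level of the same markers was less even on the soy oil diet. Left and right were at 8.04 and 8.01 in SOD-CCI rat 1, 7.97 and 8.03 in rat 2, and 7.90 and 8.23 in rat 3. In FOD-CCI rats 2 and 3 they were at 7.37 and 7.82, and at 7.82 and 7.64. The marker Snap25 was itself called as lower on the left over both diets without rat 1 (-0.56, SE 0.12, edgeR adjusted p = 0.0355), among 7.64% of all genes. Divided by the summed marker CPM in each library, a scaling added after the values were seen, Chga was still lower on the left in 5 of 5 rats without FOD-CCI rat 1, with a mean of -0.95 ± 0.49 (SD, n = 5), against -0.91 ± 0.41 (SD, n = 5) before the division. Scaling by the mean log2 level was not done.

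Against sham DRG the same gene showed the same direction with a wider error. Chga was at 69.2, 149, 130.4, and 101 CPM in SOD-CT, where the lowest value belongs to the library with skeletal muscle transcripts, and its log2 fold change in SOD-CCI was -0.60 (SE 0.54, edgeR adjusted p = 0.633). In FOD-CT it was at 212, 144.6, and 144.6 CPM, and in FOD-CCI at 352, 80.7, 79.1, and 50.8 CPM, a log2 fold change of -0.25 (SE 0.53, edgeR adjusted p = 1.00). With all libraries these groups overlapped, since FOD-CCI 1, at 352 CPM, lay above all FOD-CT libraries. None of the 9 genes tested had FOD-CCI and FOD-CT groups that did not overlap, against 4.51% of 14435 genes. The 3 FOD-CCI libraries without spinal cord transcripts lay below all 3 FOD-CT libraries. That count leaves out FOD-CCI 1 but keeps FOD-CT 1, which also holds spinal cord transcripts. The share of all genes separated in this way was not taken. Without the libraries with spinal cord transcripts the fish oil value was -1.05 (SE 0.32, adjusted p = 0.356), and it was called when SOD-CT 1 was left out as well (-1.05, SE 0.26, adjusted p = 0.0688), a fit in which 3.47% of all genes were called on the fish oil diet and 1.32% on the soy oil diet. The soy oil value in that fit was -0.77 (SE 0.24, adjusted p = 0.197). Both fits kept FOD-CT 2, which held 21789 CPM of muscle markers.

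Chgb, the other chromogranin, was less even between rats. It was at 31.4, 159, 162, and 154 CPM in SOD-CT, with the library with muscle transcripts far below the other 3, and at 141, 100.05, and 96.3 CPM in SOD-CCI (log2 fold change -0.15, SE 0.53, edgeR adjusted p = 0.915). In FOD-CT it was at 272, 151, and 137 CPM and in FOD-CCI at 268, 83.2, 99.0, and 67.9 CPM (log2 fold change -0.53, SE 0.53, edgeR adjusted p = 1.00). FOD-CT 1 and FOD-CCI 1 (spinal cord transcripts) and SOD-CT 1 (muscle transcripts) were left out together in another fit. There edgeR called Chgb on the fish oil diet (-0.80, SE 0.20, adjusted p = 0.0711) and gave -0.49 (SE 0.18, adjusted p = 0.286) on the soy oil diet. That fit kept 2 FOD-CT libraries, and FOD-CT 2 held 21789 CPM of muscle markers. Within rats the sides went both ways, from -1.07 to 1.07 on the log2 scale, and edgeR gave -0.14 (SE 0.41, adjusted p = 0.963) in SOD-CCI rats, -0.22 (SE 0.40, adjusted p = 0.933) in FOD-CCI rats, and -0.18 (SE 0.28, adjusted p = 0.859) over both diets.

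Scg2, the granin with the highest level, was the steadiest gene of the set apart from Pcsk1, with a 2.52-fold range over the 17 libraries without spinal cord transcripts. Its group means lay between 248 ± 102 CPM (SD, n = 4) in FOD-CCI and 316 ± 53.9 CPM (SD, n = 3) in FOD-CT. Its log2 fold changes were 0.17 (SE 0.27, edgeR adjusted p = 0.807) with injury on the soy oil diet and -0.35 (SE 0.27, edgeR adjusted p = 1.00) on the fish oil diet. Between sides they were -0.00 (SE 0.30, edgeR adjusted p = 0.999) in SOD-CCI rats, -0.15 (SE 0.30, edgeR adjusted p = 0.940) in FOD-CCI rats, and -0.07 (SE 0.21, edgeR adjusted p = 0.927) over both diets. The ratio of Chga to Scg2 counts, picked after the values were seen, was 0.220 to 0.298 in SOD-CCI and 0.306 to 0.511 in SOD-CT. On the fish oil diet it was 0.205 to 1.46 in FOD-CCI and 0.390 to 0.806 in FOD-CT, which overlap.

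The convertases differed from each other. Pcsk1 was at 70.4, 87.0, 76.3, and 75.0 CPM in SOD-CT and at 174, 114, and 102 CPM in SOD-CCI, again without overlap (log2 fold change 0.75, SE 0.40, edgeR adjusted p = 0.410). Without the libraries with spinal cord transcripts the value was the same, 0.76, with an SE of 0.21 (adjusted p = 0.209). On the fish oil diet Pcsk1 was at 32.8, 100.1, and 89.6 CPM in FOD-CT and at 31.9, 77.6, 90.8, and 116 CPM in FOD-CCI (log2 fold change 0.10, SE 0.41, edgeR adjusted p = 1.00). Within rats it was higher on the left in 5 of 6, by 0.29 (SE 0.24, edgeR adjusted p = 0.821) in SOD-CCI rats, 0.33 (SE 0.24, edgeR adjusted p = 0.806) in FOD-CCI rats, and 0.31 (SE 0.17, edgeR adjusted p = 0.530) over both diets, of which the last was 0.13 (SE 0.13) without rat 1.

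Pcsk2, which acts later in the vesicle and releases the final peptides, had lower values on the injured side in 4 of 6 rats. It was at 66.3, 54.6, and 47.8 CPM on the left of SOD-CCI rats and at 88.0, 93.4, and 103.5 CPM on the right, without overlap. The log2 fold change was -0.74 (SE 0.29, edgeR adjusted p = 0.514). In FOD-CCI rats it was -0.04 (SE 0.29, edgeR adjusted p = 0.983), and over both diets -0.39 (SE 0.21, edgeR adjusted p = 0.514). Without FOD-CCI rat 1 the value over both diets was called (-0.59, SE 0.17, adjusted p = 0.0848), in the fit that called 7.64% of all genes. Sham DRG spanned both levels, at 24.15, 83.8, 79.6, and 30.2 CPM in SOD-CT, and the changes with injury were 0.06 (SE 0.39, edgeR adjusted p = 0.954) on the soy oil diet and -0.33 (SE 0.39, edgeR adjusted p = 1.00) on the fish oil diet. Neuron markers moved with this gene: over the 17 libraries without spinal cord transcripts, Pcsk2 and the mean log2 level of the neuron markers had a Pearson's r of 0.921, against 0.707 for Chgb, 0.544 for Chga, and 0.289 for Calca, as a description across libraries that share rats and groups. The library lowest in Pcsk2 was also the lowest of these 17 in summed neuron markers (SOD-CT 1, 3859 CPM). SOD-CT 1 and SOD-CT 4, the lowest in Pcsk2 (24.15 and 30.2 CPM), held 143359 and 5443 CPM of skeletal muscle markers. Their mean log2 levels of the neuron markers, 6.887 and 7.368, were also the lowest of the 17. The r without these libraries was not taken. Divided by the summed CPM of these markers, Pcsk2 was lower on the left in 5 of 5 rats without FOD-CCI rat 1, with a mean of -0.66 ± 0.28 (SD, n = 5). Before the division the mean was -0.62 ± 0.46 (SD, n = 5), with 1 of 5 rats higher on the left. The share of all genes lower in 5 of 5 rats was not taken for this scaling, which was added after the values were seen. Scaling by the mean log2 level of the markers was not done here either.

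Pcsk1 and Pcsk2 went in opposite directions between sides in the 3 SOD-CCI rats and in the same direction in the 3 FOD-CCI rats. On the fish oil diet some of these log2 ratios were close to 0. Pcsk1 and Pcsk2 were at -0.04 and -0.86 in rat 2, and at 0.10 and 0.08 in rat 3. In rat 1, with spinal cord transcripts on both sides, they were at 1.11 and 0.79. A difference in direction between diets was not tested. The ratio of their counts within a library was 2.62, 2.09, and 2.12 in the injured DRG of SOD-CCI rats and 1.81, 0.898, and 0.835 on their contralateral side. In FOD-CCI rats 1, 2, and 3 it was 0.417, 2.08, and 1.49 on the left and 0.333, 1.18, and 1.47 on the right, so that all 6 rats had the higher ratio on the injured side, by the least in FOD-CCI rat 3. Sham libraries ranged from 0.540 to 2.92 and overlapped with the injured ones. This ratio too was picked after the values were seen and carries no test.

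**Figure D4:**
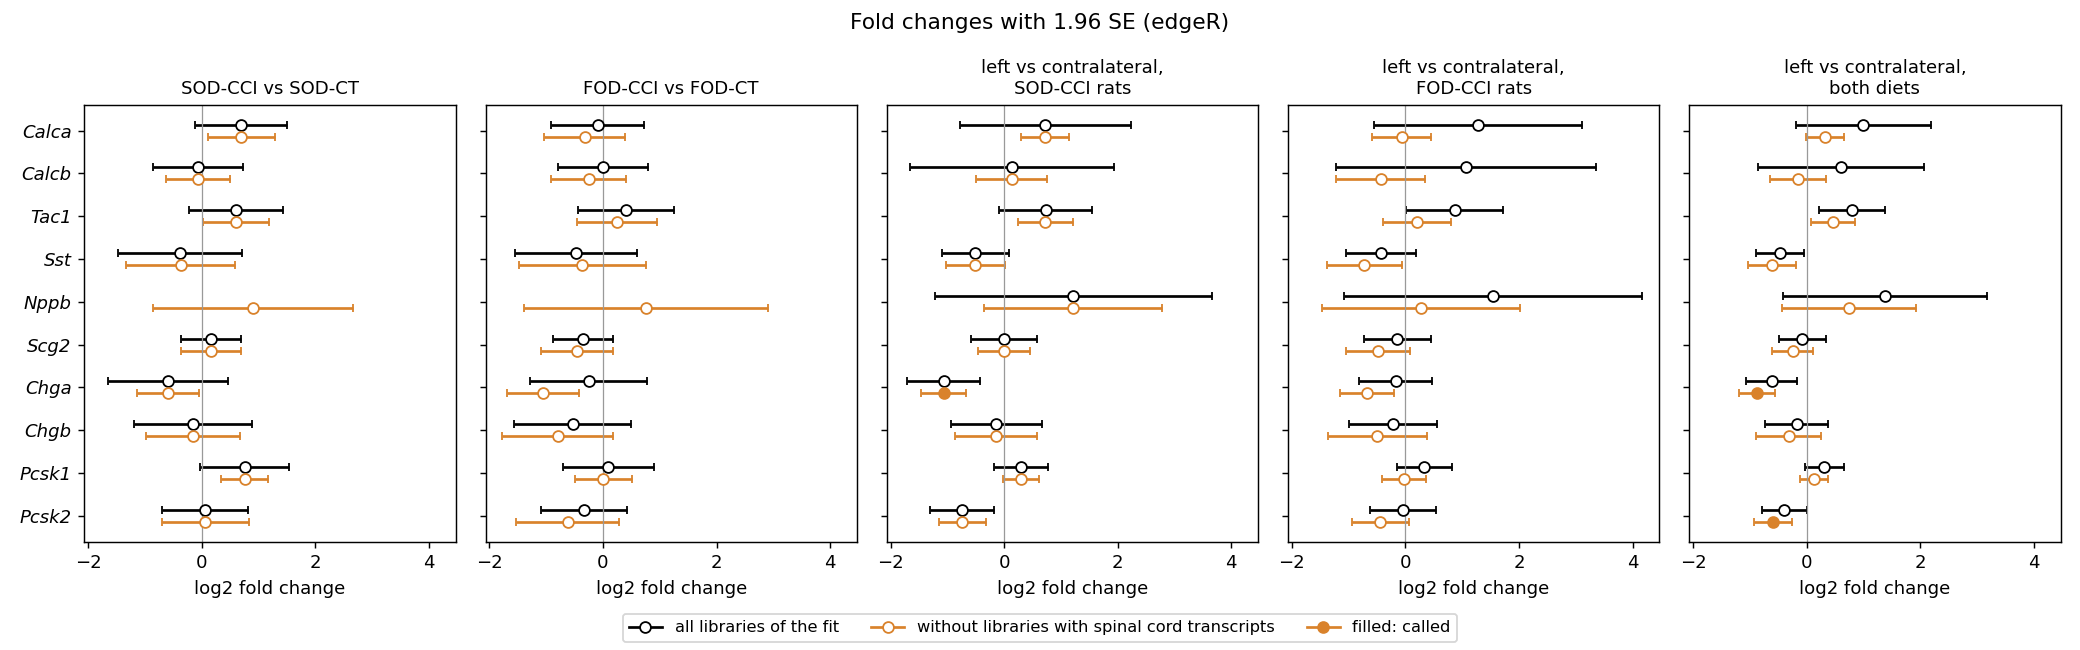
Log2 fold changes of the genes in 5 comparisons, with bars for the 95% normal interval, fitted with all libraries (black) and without the libraries with spinal cord transcripts (orange); filled points were called. Filled points mark Chga in SOD-CCI rats and Chga and Pcsk2 over both diets, all in orange; Nppb has no black point in the first panels because it did not pass the filter there.

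Counted over the whole set, edgeR called none of the genes in any of 11 comparisons with all libraries (a call needs a change of 1.2-fold or more with an adjusted p no higher than 0.1). This has to be read against the background. In the left DRG, edgeR called 0% of 14484 genes in SOD-CCI vs SOD-CT, in FOD-CCI vs FOD-CT, in FOD-CCI vs SOD-CCI, in FOD-CT vs SOD-CT, and in the diet by injury interaction. At an unadjusted p under 0.05 there were 0 of 9 members in each of these 5 comparisons. The share of all genes was 13.8% in SOD-CCI vs SOD-CT and 4.52% in FOD-CCI vs FOD-CT. DESeq2 also called 0 of 9 members in each. Of the 14484 genes it called 594 in SOD-CCI vs SOD-CT and 21 in FOD-CCI vs FOD-CT. It called 2 in FOD-CCI vs SOD-CCI and 42 in the interaction. Between sides edgeR called 0.131% of 14549 genes in SOD-CCI rats, 0.0137% in FOD-CCI rats, 0.962% over both diets, and 0% for the difference between diets. There 2 of 10 members had an unadjusted p under 0.05 in SOD-CCI rats (Chga and Pcsk2), 0 in FOD-CCI rats, and 2 over both diets (Tac1 and Chga). Fitted on the 6 libraries of the SOD-CCI rats alone, edgeR called 4 members between sides, Calca and Tac1 higher on the left and Chga and Pcsk2 lower, among 9.88% of all genes, with standard errors of 0.18 to 0.19 in place of 0.29 to 0.77. Between contralateral and sham DRG edgeR called 0% of 14007 genes on each diet. There 0 of 9 members had an unadjusted p under 0.05 (7.06% of all genes on the soy oil diet and 1.71% on the fish oil diet). DESeq2 called 0 of 9 members, and 52 of all genes on the soy oil diet. The largest member difference was 0.78 (SE 0.37, edgeR adjusted p = 0.700) for Pcsk2 on the soy oil diet.

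Diet alone moved no gene of the set past the threshold. In sham DRG the median log2 fold change of the 9 tested genes, FOD over SOD, was 0.29, and in injured DRG it was -0.22, against medians of -0.01 and 0.04 over all genes tested. In injured DRG the values ran from -0.70 for Pcsk1 (129.7 ± 38.5 CPM, SD, n = 3, in SOD-CCI and 79.1 ± 35.3 CPM, SD, n = 4, in FOD-CCI) to 0.94 for Chga. FOD-CCI 1 bears on both ends, since it held the lowest Pcsk1 and the highest Chga of its group. Without the libraries with spinal cord transcripts Pcsk1 was at -0.43 (SE 0.23, adjusted p = 0.879) and Chga at -0.07 (SE 0.29, adjusted p = 0.986). The injury effect differed between diets by -0.78 (SE 0.59, edgeR adjusted p = 0.894) for Calca and by -0.66 (SE 0.57, edgeR adjusted p = 0.894) for Pcsk1, the largest negative interactions, so that the 95% intervals, -1.94 to 0.37 and -1.78 to 0.46, include 0 and also differences of more than 1 log2 unit. The medians and interactions of this paragraph are given with all libraries alone, FOD-CT 1 and FOD-CCI 1 among them.

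Other genes of peptide processing and of dense-core vesicles stayed near 0 as a list, whose genes were chosen with results of these data known. Of 15 genes tested, 0 were called with injury on either diet, with medians of 0.11 (SOD) and 0.01 (FOD) on the log2 scale, and between sides 1 was called in SOD-CCI rats and over both diets. That gene was Vgf, a secreted granin-like precursor that rises in injured sensory neurons, at 2.52 (SE 0.26, edgeR adjusted p = 0.00924) over both diets. Without the libraries with spinal cord transcripts, Vgf was also called in SOD-CCI vs SOD-CT (3.14, SE 0.62, adjusted p = 0.0844) and between sides in FOD-CCI rats (2.68, SE 0.21, adjusted p = 0.00148). The shares of all genes called there were 0.592% and 0.914%. In that setting Cadps2, which primes dense-core vesicles for release, was called as lower between sides in SOD-CCI rats (-0.86, SE 0.20, adjusted p = 0.0757) and over both diets (-0.59, SE 0.16, adjusted p = 0.0752). The receptors of the peptides are mostly made by the cells that receive them, and 6 of 10 passed the filter, 0 were called in the injury, diet, or side comparisons (1 had an unadjusted p under 0.05, as lower, for the difference between diets in the side ratio), and the median between sides was 0.12 over both diets. The nociceptor genes (10 tested, 0 called with all libraries) had medians of 0.34 with injury on the soy oil diet and -0.17 on the fish oil diet. All 10 were lower in FOD-CCI than in SOD-CCI (median -0.80), or 9 of 10 (median -0.62) without the libraries with spinal cord transcripts. In that setting Trpa1 was called as higher between sides in SOD-CCI rats (0.77, SE 0.19, edgeR adjusted p = 0.0904). Prdm12 was called as lower over both diets (-0.52, SE 0.14, edgeR adjusted p = 0.0739). The large-diameter neuron genes (7 of 8 tested, 0 called with all libraries) had medians of -0.29 and -0.43. Without the libraries with spinal cord transcripts, Scn1a and Pvalb were called as lower between sides in SOD-CCI rats. Over both diets Scn1a (-0.95), Pvalb (-1.09), and Nefm (-0.63) were called as lower and Spp1 (0.69) as higher. That setting called 3.14% of all genes in SOD-CCI rats and 7.64% over both diets.

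The peptides that sensory neurons switch on after injury were called between sides in part. With all libraries, 6 of 7 listed were tested, with 2 called in SOD-CCI rats and 0 in FOD-CCI rats. In FOD-CCI rats 3 had an unadjusted p under 0.05. Gal, Adcyap1, and Cck, precursors of galanin, PACAP, and cholecystokinin, were called over both diets, at 3.66 (SE 0.43, edgeR adjusted p = 0.0159), 1.88 (SE 0.31, edgeR adjusted p = 0.0451), and 3.12 (SE 0.47, edgeR adjusted p = 0.0342) on the log2 scale. The median of the 6 tested was 2.501, against 0.12 for the 10 genes and 0.03 for all genes. Without the libraries with spinal cord transcripts 7 were tested, and 1 was lower in each side comparison. Called as higher were 5 in SOD-CCI rats, 5 in FOD-CCI rats, and 6 over both diets. All-gene shares there were 3.14%, 0.914%, and 7.64%. In that setting Npy was at 7.58 in SOD-CCI rats and 6.77 in FOD-CCI rats, and Vip at 7.15 and 5.42. Against sham DRG it called Adcyap1 on the soy oil diet (2.82, SE 0.45, edgeR adjusted p = 0.0705), among 0.592% of all genes. On the fish oil diet it called 0 of the list. With all libraries 0 of 6 were called against sham on either diet, with medians of 2.24 (SOD) and 2.22 (FOD). Gal was at 8.53 CPM in FOD-CCI 1, against 89.3 to 393 CPM in the other 6 injured DRG and 5.47 to 56.6 CPM in sham DRG, within the sham range.

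Across the 20 libraries the genes formed blocks. Calca and Calcb had a Pearson's r of 0.965, Calca and Tac1 0.922, and Calca and Pcsk1 0.832, while Chga and Chgb had 0.736 and Calca and Chga -0.34. The first block was weaker without the libraries with spinal cord transcripts. In the other 17, Calca and Calcb had an r of 0.549, Calca and Tac1 0.800, and Calca and Pcsk1 0.410. Scg2 stayed with the sensory peptides (0.733 with Calca and 0.818 with Calcb), and Chga stayed with Chgb (0.597) and Pcsk2 (0.716). Sst followed Calcb (0.639) more than Calca (0.198). These values describe libraries that share rats, groups, and scaling, and no p is given.

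**Figure D5:**
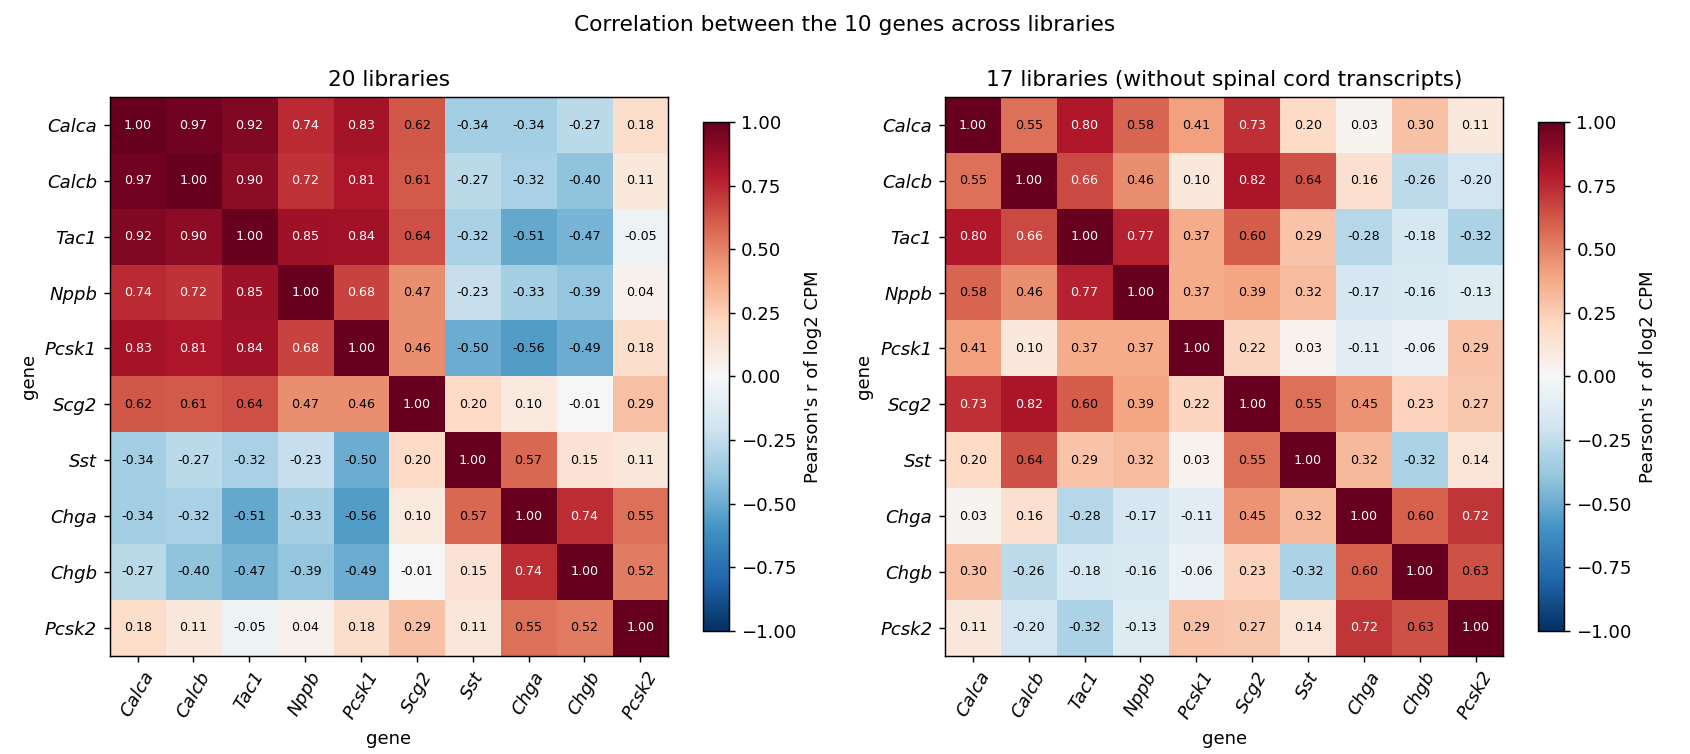
Pearson's r of log2 CPM between the genes over 20 libraries (left) and over the 17 without spinal cord transcripts (right). The block of Calca, Calcb, Tac1, Nppb, and Pcsk1 on the left is weaker on the right (Calca and Calcb 0.965 and 0.549), and Chga, Chgb, and Pcsk2 stay together in both (Chga and Pcsk2 0.551 and 0.716).

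The genes whose levels were most like those of 4 members were sought among 14435 genes with at least 10 counts in 18 of 20 libraries. For Calca they were LOC102546594 (r = 0.967), Calcb (0.965), and Scml4 (0.965), and for Tac1 they were Synpr (0.957), Prkar2b (0.953), and Nipsnap3b (0.941). For Sst they were St3gal5 (0.874), Bmyc (0.840), and Asna1 (0.836), and for Scg2 they were Ldb2 (0.783), Shf (0.782), and Kctd8 (0.776). Over the 17 libraries without spinal cord transcripts the nearest were Stac for Calca (0.868), Pkib for Tac1 (0.869), Pik3c2g for Sst (0.850), and Calcb for Scg2 (0.818). Synpr remained among the 3 nearest of Tac1, St3gal5 of Sst, and Ldb2 of Scg2.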

How the data were processed

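Poly-A-selected RNA of 20 rat DRG was sequenced. The submitters' processing notes name fastp, HISAT2, and featureCounts 1.5.0-p3. The deposited counts are whole numbers, not scaled and not pooled. The FPKM values that the authors also deposited derive from these counts by gene length, and each library's constant equals its DESeq2 size factor times a constant shared by all libraries, the geometric mean of their totals. The genome build, strand use, and handling of reads with several alignments are not given in the sources used here. Separate rats were taken as replicates.

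Groups came from the sample labels, and 0 columns were left unassigned. Counts were analysed in R 4.3.3 with edgeR 4.0.16 (TMM, quasi-likelihood test). A gene entered a fit if 90% or more of its libraries had 10 counts or more, namely 14484 (14 left DRG, a mean per group), 14549 (12 DRG of 6 CCI rats, rat as block), and 14007 (13 sham and contralateral DRG). All libraries of a fit share an estimate of spread. SE is the log2 fold change divided by the square root of the F statistic. Log2 CPM used a prior count of 1. Left and right DRG of a rat come from the same animal, and their deviations from group means correlated at 0.114 to 0.430 over 14435 genes in all 6 rats. The same check between sham and CCI rats of the same number gave 0.429, 0.237, and 0.192 on the fish oil diet, where number 1 marks libraries with spinal cord transcripts in both groups, and 0.0686, 0.0768, and -0.0761 on the soy oil diet. Sham and CCI libraries of the same number come from different rats, so the main fit of the left DRG took no pairs on either diet. A replicate block over both diets was fitted there as an alternative. The alternatives were DESeq2 1.42.0, its size factors, total counts, no filter, the replicate block, fits on the compared libraries alone, and leaving out each library or those with spinal cord or muscle transcripts. Of the libraries with muscle transcripts only SOD-CT 1 was left out. FOD-CT 2 (21789 CPM of muscle markers) and SOD-CT 4 (5443 CPM) stayed in. Between sides a rat was left out with both its DRG. There, leaving out the libraries with spinal cord transcripts is the same fit as leaving out FOD-CCI rat 1. The code was tested on simulated data.

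The 10 genes, the lists, and the libraries named for spinal cord and muscle transcripts were chosen with earlier results of these data known. The 10 genes were always named, the 3 genes nearest to Calca, Tac1, Sst, and Scg2 by Pearson's r were named, and from the lists only called genes or up to 4 genes with the smallest p, apart from Scn10a, Trpv1, and Mrgprd, which were named after their values were seen. The study's behavioural, protein, and metabolite data were not analysed here.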

Additional observations from a re-analysis of the deposited data

Results flagged for a closer look

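In 4 of the 20 sets of 4 libraries examined (10 genes in SOD-CT and in FOD-CCI), the gap between an extreme library and its nearest neighbour, as a share of the group's range, passed the 95% critical value of Dixon's test for 4 samples. Chance alone gives about 1 in 20. In FOD-CCI, Chga (0.901) and Chgb (0.845) were flagged for the high values of FOD-CCI 1, 352 and 268 CPM, the library with 1998 CPM of spinal cord markers. Calcb in FOD-CCI (0.865) was flagged for the high value of FOD-CCI 2, 263 CPM, a library with 9830 CPM of red cell markers. Chgb in SOD-CT (0.938) was flagged for the low value of SOD-CT 1, 31.4 CPM, the library with 143359 CPM of skeletal muscle markers and 3859 CPM of neuron markers. The part of these marker levels in the flagged values was not tested.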

How the results depend on the processing

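With 10 genes in few rats, the spread between rats set what could be called, and counts of calls moved with the libraries kept. Leaving out the libraries with spinal cord transcripts and SOD-CT 1 raised the members called in FOD-CCI vs FOD-CT from 0 to 2. The genes called rose from 0 to 526 (3.47%). This is the fit named below as without cord or muscle transcripts. It kept 2 FOD-CT libraries, and FOD-CT 2 held 21789 CPM of muscle markers. Between sides in SOD-CCI rats the count was 1 by DESeq2 (3.24% of all genes) and 4 on the compared libraries alone (9.88%). It was 1 without the libraries with spinal cord transcripts (3.14%), and 0 to 1 with each rat left out in turn. Over both diets it was 2 by DESeq2 (5.43%), 2 without the libraries with spinal cord transcripts (7.64%), and 0 to 2 with each rat left out. With the replicate block in the left DRG, or no replicate block between sides, 0 members were called, as in the main fits. Causes of the shifts were not tested. Signs turned mostly for values near 0 (log2 fold changes). In SOD-CCI vs SOD-CT, Calcb was 0.0884 with total counts and, without the libraries with cord or muscle transcripts, Calcb was 0.0202, Sst 0.0318, and Pcsk2 -0.188, and Pcsk2 was -0.0199 with the replicate block. In FOD-CCI vs FOD-CT, Calcb was -0.0189 with total counts, -0.000887 with no filter, -0.250 without cord transcripts, and -0.251 without cord or muscle transcripts, and Pcsk1 was -0.0324 with the replicate block and -0.00941 without cord or muscle transcripts. In FOD-CCI vs SOD-CCI, Chga was -0.0655 without cord transcripts and -0.0560 without cord or muscle transcripts, and ran from -0.0648 to 1.21 with each library left out. Between sides, Scg2 in SOD-CCI rats was 0.0488 with total counts, and in FOD-CCI rats Chga was 0.182 with no replicate block, Pcsk2 0.00544 with no filter, and Calca -0.0686, Calcb -0.435, and Pcsk1 -0.0229 without rat 1, where Calcb over both diets was -0.151. With each library left out in turn, SOD-CCI vs SOD-CT ran from -0.140 to 0.0206 for Calcb, -0.664 to 0.0327 for Sst, and -0.187 to 0.3502 for Pcsk2. FOD-CCI vs FOD-CT ran from -0.481 to 0.265 for Calca, -0.435 to 0.297 for Calcb, -0.0778 to 0.789 for Tac1, -0.912 to 0.0710 for Sst, -1.26 to 0.0221 for Chga, and -0.259 to 0.385 for Pcsk1. With each rat left out in turn, sides in SOD-CCI rats ran from -0.146 to 0.481 for Calcb, -0.266 to 0.187 for Scg2, and -0.739 to 0.304 for Chgb. Sides in FOD-CCI rats ran from -0.0686 to 2.65 for Calca, -0.435 to 2.87 for Calcb, -0.721 to 0.102 for Sst, -0.491 to 0.251 for Scg2, -0.684 to 0.137 for Chga, -0.494 to 0.183 for Chgb, -0.0229 to 0.543 for Pcsk1, and -0.440 to 0.379 for Pcsk2. Sides over both diets ran from -0.151 to 1.503 for Calcb, -0.248 to 0.124 for Scg2, and -0.476 to 0.0484 for Chgb. Over the members in these injury and side comparisons and the single values printed for the others, 823 refitted fold changes kept direction and side of the threshold, 56 turned sign, and 15 became called. Between sides, the fit without FOD-CCI rat 1 and the identical fit without spinal cord transcripts were both counted. Values of the other comparisons that are not printed were not counted.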
